A study of Mus musculus with 6 samples.

Results

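The GIMAP genes encode the GTPases of immunity-associated proteins, a family of guanine nucleotide-binding proteins found mainly in lymphocytes. Every row of the expression table whose symbol was Gimap1, Gimap3, Gimap4, Gimap5, Gimap6, Gimap7, Gimap8 or Gimap9 was taken, and all 8 members were present among the 14490 listed genes. Rows were taken by name, but the members were chosen with earlier results of these data known. The data are mRNA-seq of splenic NK cells from C57BL/6 mice, with 3 WT samples (Mettl3fl/fl) and 3 cKO samples (Ncr1Cre-Mettl3fl/fl, with 1 Cre allele, Ncr1Cre/+, per the study's methods). Mettl3 encodes the catalytic subunit of the methyltransferase that deposits N6-methyladenosine (m6A) on RNA. Both genotypes carry the floxed Mettl3 alleles, and only the cKO mice carry Cre, which is driven by Ncr1, the gene of the NK receptor NKp46, so that WT mice do not control for Cre itself. The cells were sorted by flow cytometry, no treatment is given for them, and the sample labels give no age. Nothing in the labels says that the samples of one genotype came from separate mice, and the p-values measure the spread between these samples only.

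GIMAP proteins share a GTP-binding domain of the AIG1 type, and most sit on intracellular membranes such as the endoplasmic reticulum, Golgi, mitochondria and lysosomes. They are known for the survival and homeostasis of resting lymphocytes: loss of Gimap5 depletes T cells and NK cells in rodents, and loss of Gimap1 depletes mature T cells and B cells. Members have also been linked to BCL2-family proteins and to autophagy. The question asked of them here was whether their mRNA levels differed between WT and cKO NK cells, and whether the members moved together.

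The deleted gene was checked first. Mettl3 had normalized counts (counts divided by the authors' size factor for the sample) of 1303, 1258 and 1192 in the WT samples and 297, 299 and 405 in the cKO samples, so that the cKO mean was 26.7% of the WT mean and the genotypes did not overlap. Each sample had between 55965515 and 71464042 reads on the listed genes. The defining NK cell markers were all listed and abundant, with summed normalized counts of 841897 to 878470 in WT and 794407 to 832948 in cKO.

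Of the 8 GIMAP genes, 6 were higher in cKO NK cells and none was lower. Gimap1 rose the most, to 1.88 times its WT level, followed by Gimap7 at 1.43 times and Gimap8 at 1.26 times. Gimap9, Gimap3 and Gimap4 rose by less, to 1.21, 1.17 and 1.11 times. Gimap6 and Gimap5 did not pass the test. The 6 calls were made at an adjusted p under 0.05 in limma's test across all genes, a rule that called 17.8% of the 14490 genes higher and 18.8% lower. The median log2 fold change of the 8 members was 0.25, beside 0.0014 over all genes. Every cKO sample lay above every WT sample for the same 6 members, an arrangement found for 22.7% of all genes. When the samples were instead scaled to equal totals, the median of all genes was 0.051, and the split of calls, 2576 higher against 2731 lower with the size factors, became 3487 against 2016. Under that scaling 7 members were called higher and none lower.

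**Figure D1:**
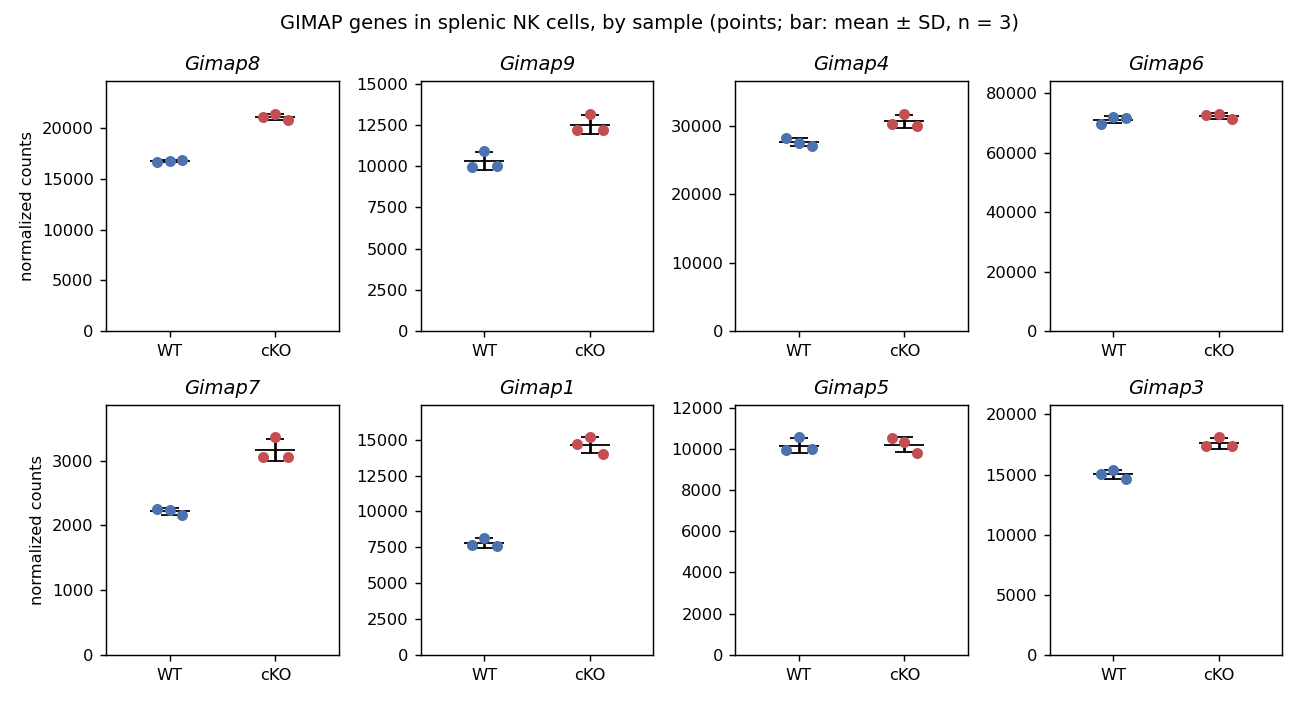
Normalized counts of each GIMAP gene (vertical axes, each starting at 0) in the 3 WT and 3 cKO samples (points), with the mean and SD of each genotype as a bar, in the order of the genes along the chromosome. The cKO points lie above all WT points for every gene except Gimap6 and Gimap5.

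The 8 genes lie next to each other on chromosome 6, in a cluster of 123618 bases on the GRCm38 build. In GENCODE they run from Gimap8 (chr6:48647234-48660875, plus strand) through Gimap9 (chr6:48676129-48679114, plus), Gimap4 (chr6:48684549-48692060, plus), Gimap6 (chr6:48701582-48708225, minus), Gimap7 (chr6:48718621-48724636, plus), Gimap1 (chr6:48739054-48743795, plus) and Gimap5 (chr6:48746197-48754210, plus) to Gimap3 (chr6:48764464-48770851, minus). All are annotated as protein-coding, with 2 to 5 exons in the transcript used for each. The gap between neighbours ranged from 2401 bases, between Gimap1 and Gimap5, to 15253 bases, between Gimap8 and Gimap9. The gene with the largest difference and the gene with the smallest difference were therefore the closest pair in the cluster.

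The promoters of 4 members are shown because they belong to the 2 members with the largest differences, Gimap1 and Gimap7, and to the 2 that did not pass the test, Gimap5 and Gimap6. Each is the 250 bases before the gene's start in RefSeq on GRCm38.p6, written 5′ to 3′ on the gene's strand, and capitals mark the matches to 4 motifs searched on both strands. The motifs were TGTGGT for RUNX factors, GGAAGT for ETS factors, AGGTGT for T-box factors and CCACCC for KLF factors, which are families of lymphocyte transcription factors. The windows are chr6:48738797-48739046 for Gimap1, chr6:48718371-48718620 for Gimap7, chr6:48745947-48746196 for Gimap5 and, on the minus strand, chr6:48708245-48708494 for Gimap6. The Gimap1 window lies within the spans of the antisense gene Gimap1os and of Gm28053. The Gimap5 window lies within the span of Gm28053, and the end of the Gimap7 window overlaps the start of Gm28053.
Gimap1: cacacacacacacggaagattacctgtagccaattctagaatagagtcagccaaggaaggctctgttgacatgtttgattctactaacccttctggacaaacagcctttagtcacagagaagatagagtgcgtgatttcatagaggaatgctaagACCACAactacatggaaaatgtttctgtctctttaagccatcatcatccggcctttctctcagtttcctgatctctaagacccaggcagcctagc
Gimap7: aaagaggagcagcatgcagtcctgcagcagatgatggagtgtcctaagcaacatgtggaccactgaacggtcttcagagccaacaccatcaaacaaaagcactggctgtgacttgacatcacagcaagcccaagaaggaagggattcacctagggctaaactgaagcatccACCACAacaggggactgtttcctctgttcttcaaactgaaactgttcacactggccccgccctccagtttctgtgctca
Gimap5: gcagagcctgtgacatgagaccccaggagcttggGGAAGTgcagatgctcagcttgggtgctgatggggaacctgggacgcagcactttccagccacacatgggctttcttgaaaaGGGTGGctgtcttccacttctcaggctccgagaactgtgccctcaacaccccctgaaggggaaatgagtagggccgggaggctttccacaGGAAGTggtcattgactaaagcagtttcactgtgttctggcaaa
Gimap6: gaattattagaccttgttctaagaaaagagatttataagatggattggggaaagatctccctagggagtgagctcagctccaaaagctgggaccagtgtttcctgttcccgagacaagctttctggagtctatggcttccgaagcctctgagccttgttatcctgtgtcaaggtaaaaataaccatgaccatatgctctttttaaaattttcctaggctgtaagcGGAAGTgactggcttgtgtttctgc

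The Gimap1 and Gimap7 windows each held 1 RUNX match, written on the opposite strand as ACCACA. No RUNX match was found in the Gimap5 or Gimap6 window. The Gimap5 window held 2 ETS matches and 1 KLF match, the latter read as GGGTGG, and the Gimap6 window held 1 ETS match. Of the remaining members, Gimap4 had 1 RUNX and 1 KLF match, Gimap9 and Gimap3 had 1 KLF match each, and Gimap8 had 1 KLF match before its second annotated start and none before its first. No member had a T-box match. Over 32851 mouse promoter windows of the same length, 14.0% held the RUNX letters, 19.7% the ETS letters, 11.8% the T-box letters and 28.1% the KLF letters. The matches describe these letters only, and no binding was measured in these samples.

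Gimap1 encodes a membrane-anchored member required for the survival of mature lymphocytes. Its normalized counts were 7632, 8173 and 7560 in the WT samples and 14664, 15158 and 14017 in the cKO samples. The lowest cKO sample exceeded the highest WT sample by 5844 counts, and the spread within each genotype was small, with means of 7788 ± 335 and 14613 ± 572 (SD, n = 3 each). This is a log2 fold change of 0.91 with a standard error of 0.037 (95% confidence interval 0.83 to 0.98, limma adjusted p = 2.35e-16). This was the 10th lowest p over the whole table and the 6th largest log2 rise among the genes with a mean of at least 1000 normalized counts.

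Reads of Gimap1 can share positions with other genes. Of the 3073 exonic bases of Gimap1, 1107 (36.0%) also belong to exons of Gimap1os, a transcript of the opposite strand, or of Gm28053. Gm28053 is annotated on the same strand as Gimap1, spans Gimap7 and Gimap1 and ends within Gimap5. The strand setting of the read counting is not given in the sources used here, so reads from Gimap1 and its antisense partner cannot be told apart in the shared bases. Gimap1os had 406, 402 and 310 normalized counts in WT and 559, 610 and 559 in cKO, without overlap between the genotypes. Its log2 fold change was 0.64 (SE 0.11, limma adjusted p = 2.75e-05). Gm28053 had 124, 76.1 and 77.1 normalized counts in WT and 71.2, 74.5 and 88.7 in cKO, where the genotypes overlapped and the test was not passed (log2 fold change −0.21, limma adjusted p = 0.531). The part of the shared bases in the Gimap1 difference was not tested.

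Gimap7, which encodes a GTPase that is activated on dimerization, had 2255, 2231 and 2157 normalized counts in WT and 3061, 3358 and 3061 in cKO. All cKO samples were higher than all WT samples. The means were 2214 ± 51.3 and 3160 ± 171 (SD, n = 3 each), with a log2 fold change of 0.51 (SE 0.048, 95% confidence interval 0.41 to 0.61, limma adjusted p = 2.79e-09). Of its exonic bases, 3.48% are shared with Gm28053.

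Gimap8 is the long member, whose protein carries several GTP-binding domains where the others carry a single one. Its normalized counts were 16642, 16765 and 16881 in WT and 21101, 21433 and 20845 in cKO. The 3 WT samples were close to each other, and all cKO samples lay above them. With means of 16763 ± 120 and 21126 ± 295 (SD, n = 3 each), the log2 fold change was 0.33 (SE 0.030, 95% confidence interval 0.27 to 0.40, limma adjusted p = 1.35e-09). No exon of Gimap8 is shared with another gene.

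Gimap9 is the member closest in protein sequence to Gimap7. It had 9974, 10915 and 10024 normalized counts in WT and 12192, 13183 and 12178 in cKO. The second WT sample was the highest of its genotype but remained below all cKO samples. The means were 10305 ± 530 and 12518 ± 576 (SD, n = 3 each), and the log2 fold change was 0.28 (SE 0.038, limma adjusted p = 1.68e-06).

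Gimap3, the close paralog of Gimap5 and linked to mitochondrial and endoplasmic reticulum membranes, had 15054, 15357 and 14635 normalized counts in WT and 17335, 18091 and 17337 in cKO. The genotypes did not overlap. Its means were 15015 ± 363 and 17588 ± 436 (SD, n = 3 each), with a log2 fold change of 0.23 (SE 0.032, 95% confidence interval 0.16 to 0.29, limma adjusted p = 2.44e-06). Gimap4, which has been linked to the execution of T cell death, had 28221, 27490 and 27061 normalized counts in WT and 30361, 31799 and 29942 in cKO. The genotypes were again separate, but by the smallest proportion of the 6 members that rose. Gimap4 had means of 27591 ± 587 and 30701 ± 974 (SD, n = 3 each) and a log2 fold change of 0.15 (SE 0.031, 95% confidence interval 0.090 to 0.22, limma adjusted p = 0.000283).

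Gimap6, which binds the autophagy protein GABARAPL2, had 69721, 72069 and 71732 normalized counts in WT and 72612, 73182 and 71427 in cKO. The lowest cKO sample lay between the WT samples. The means of 71174 ± 1270 and 72407 ± 895 (SD, n = 3 each) gave a log2 fold change of 0.025 (SE 0.029, 95% confidence interval −0.034 to 0.084, limma adjusted p = 0.545). After scaling to equal totals Gimap6 had a log2 fold change of 0.075 and a limma adjusted p of 0.0260.

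Gimap5, the lysosomal member whose loss depletes NK cells and T cells, had 9923, 10557 and 9979 normalized counts in WT and 10508, 10325 and 9793 in cKO. The lowest value was a cKO sample and the highest a WT sample, and the ranges overlapped. The means were 10153 ± 351 and 10209 ± 371 (SD, n = 3 each), and the log2 fold change was 0.0078 (SE 0.036, 95% confidence interval −0.066 to 0.082, limma adjusted p = 0.891). An increase of the size measured for Gimap1, Gimap7, Gimap8, Gimap9, Gimap3 or Gimap4 lies outside this interval.

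Each of the 6 members that rose had an exact two-sided permutation p of 0.1 over the 20 assignments of the samples, which is the smallest p that 3 samples against 3 can give, so that this test could not reach the threshold. The exact permutation p was 0.3 for Gimap6 and 1 for Gimap5. In bulk samples, fewer cells of a type and less RNA per cell cannot be told apart, and a difference in level may be of either kind.

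**Figure D2:**
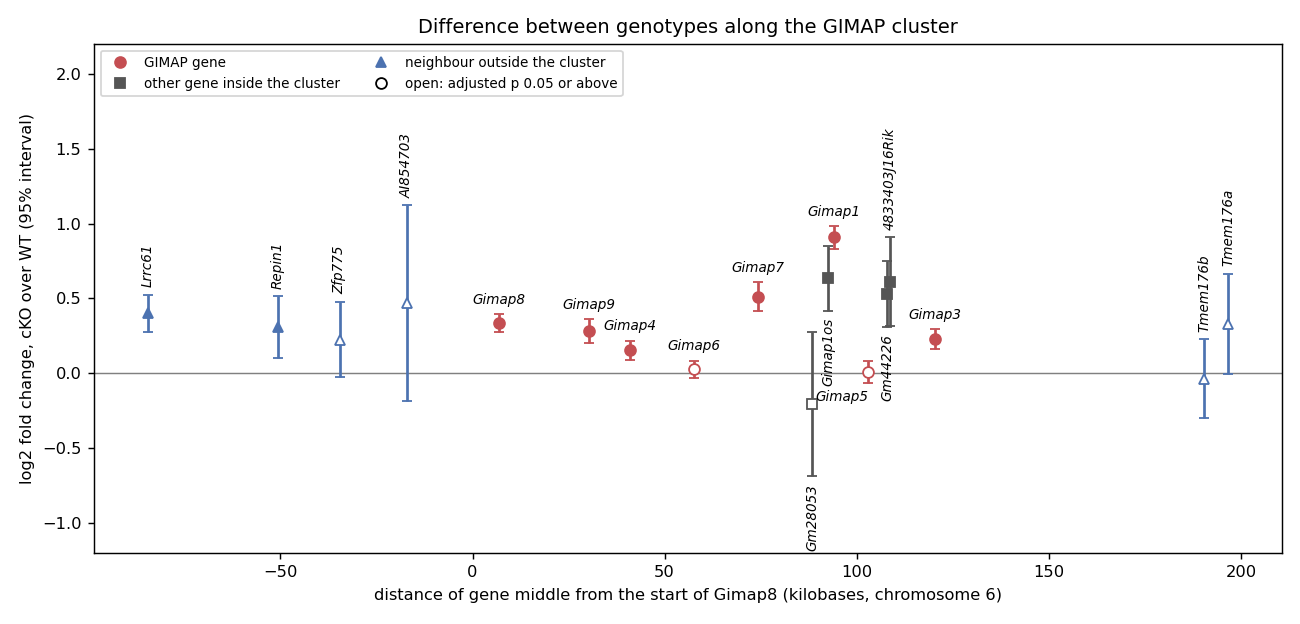
Log2 fold change of cKO over WT with its 95% confidence interval (vertical axis) against the distance of each gene's middle from the start of Gimap8 in kilobases (horizontal axis), for the GIMAP genes (circles), other listed genes inside the cluster (squares) and neighbours within 100 kilobases (triangles), open where the limma adjusted p was 0.05 or above. Gimap1 at 0.91 and Gimap5 at 0.0078 lie side by side.

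Other genes in and around the cluster did not all follow one direction. Inside the cluster, 3 of the 4 other listed genes were higher in cKO: Gimap1os, Gm44226 and 4833403J16Rik, all annotated as non-coding. Over all genes, to be set beside these and the neighbours below, 17.8% were higher and 18.8% lower. Gm44226 had 308, 311 and 345 normalized counts in WT and 418, 513 and 464 in cKO (log2 fold change 0.53, limma adjusted p = 0.000317). 4833403J16Rik had 157, 161 and 187 in WT and 291, 243 and 241 in cKO (log2 fold change 0.61, limma adjusted p = 0.00140). Both lie between Gimap5 and Gimap3, and in both every cKO sample lay above every WT sample, an arrangement found for 22.7% of all genes. Their annotated spans overlap on opposite strands. Since the strand setting is not given, their reads may not be distinct.

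Of the 5 nearest listed genes before Gimap8, Lrrc61 (log2 fold change 0.40, limma adjusted p = 8.40e-06) and Repin1 (0.31, 0.0183) were higher in cKO. Zfp862-ps was lower (−0.41, 0.0224), and Zfp775 and AI854703 did not pass the test, with log2 fold changes of 0.22 and 0.47. Of the 5 nearest listed genes after Gimap3, Malsu1 was lower (−0.26, 0.00194), while Tmem176b (−0.038), Tmem176a (0.33), Gpnmb (−0.19) and Gm7890 (−0.23) did not pass the test.

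The summed normalized counts of the 8 members were 159421, 163558 and 160028 in WT and 181834, 186529 and 178599 in cKO. The genotypes did not overlap, with means of 161002 ± 2234 and 182321 ± 3987 (SD, n = 3 each). The cKO sum was 1.13 times the WT sum, and 1.22 times when Gimap6 was left out. GIMAP genes made up 0.239% to 0.246% of all normalized counts in the WT samples and 0.281% to 0.287% in the cKO samples. Gimap1 accounted for 32.0% of the difference between the sums, Gimap8 for 20.5%, Gimap4 for 14.6%, Gimap3 for 12.1% and Gimap9 for 10.4%. Gimap6 accounted for 5.78%, Gimap7 for 4.44% and Gimap5 for 0.262%.

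The composition of the family, which does not depend on scaling between samples, differed between the genotypes. Gimap1 rose from 4.84% ± 0.143 of the summed counts in WT to 8.01% ± 0.146 in cKO (SD, n = 3 each), and Gimap8 went from 10.4% ± 0.151 to 11.6% ± 0.0913. Gimap6 went from 44.2% ± 0.559 to 39.7% ± 0.422 and Gimap5 from 6.30% ± 0.130 to 5.60% ± 0.158. For these 4 members every cKO share lay on one side of every WT share. Smaller separate shares were found for Gimap7 (1.38% and 1.73%), Gimap9 (6.40% and 6.86%) and Gimap3 (9.33% and 9.65%). The share of Gimap4 was 17.1% ± 0.490 in WT and 16.8% ± 0.186 in cKO, and its samples overlapped. The exact two-sided permutation p was 0.1 for each of the 7 separate shares, the smallest possible, and 0.5 for Gimap4. When Gimap6 was left out of the sum, the differences of Gimap3 and Gimap9 turned from 0.321 and 0.466 percentage points higher in cKO to −0.711 and −0.0825. Leaving Gimap6 out also moved the difference of Gimap8 from 1.18 to 0.561 percentage points, that of Gimap5 from −0.706 to −2.01 and that of Gimap4 from −0.303 to −2.79. With counts per kilobase in place of counts, the difference of Gimap8 was 0.665 percentage points.

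**Figure D3:**
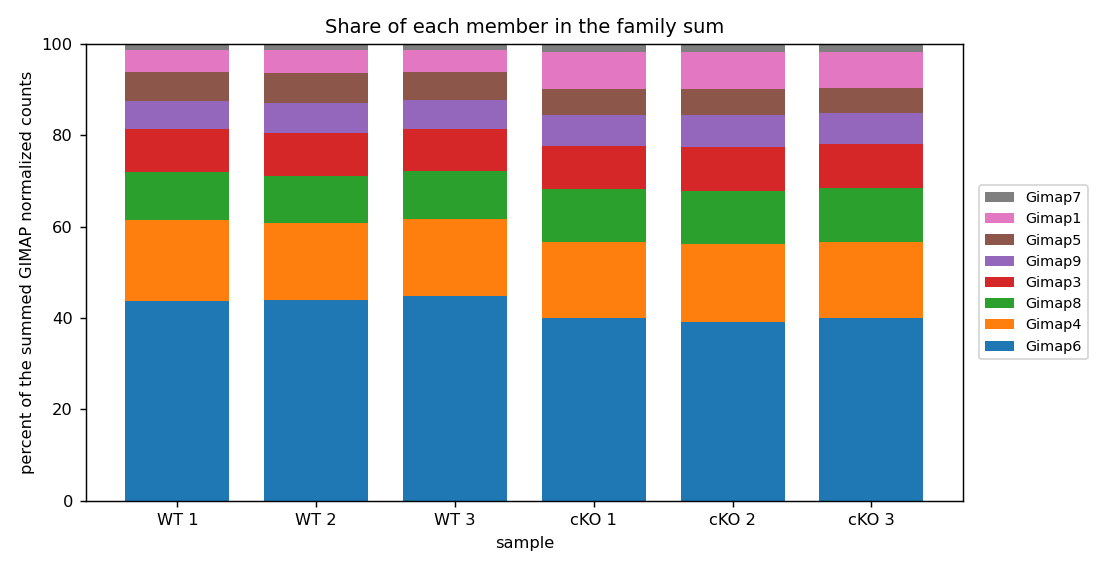
Percent of the summed GIMAP normalized counts (vertical axis) taken by each member in the 6 samples (bars), with segments stacked in the order of the WT means. The Gimap1 segment widens from 4.84% to 8.01% on average and the Gimap6 segment narrows from 44.2% to 39.7%.

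Levels were compared between members per length, as normalized counts per kilobase of each gene's transcript with the longest coding sequence. On this scale Gimap6 was the highest in WT NK cells, at 44651 ± 797 (SD, n = 3), followed by Gimap4 at 15294 ± 325. Gimap9 at 7446 ± 383 and Gimap3 at 7000 ± 169 came next, with ranges that did not overlap in these samples. Gimap8 at 5342 ± 38.2, Gimap1 at 5217 ± 225 and Gimap5 at 5199 ± 180 could not be ordered, since their ranges overlapped. Gimap7 was the lowest at 1745 ± 40.4, and Gimap6 was 25.6 times as high.

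In cKO NK cells Gimap6 (45425 ± 562) and Gimap4 (17018 ± 540) kept their places. Gimap1 came next at 9788 ± 383, before Gimap9 at 9044 ± 416, and their ranges overlapped. Gimap3 (8199 ± 203), Gimap8 (6732 ± 94.1), Gimap5 (5227 ± 190) and Gimap7 (2490 ± 135) followed (SD, n = 3 each). Gimap1 thus left the group of Gimap8 and Gimap5 that it shared in WT. When each gene's exonic bases not shared with another gene were used as its length, the WT order of the means was the same, with Gimap6 at 20359 and Gimap4 at 15020, and Gimap1 (7433) followed Gimap9 (7623) in cKO. On that scale Gimap8, Gimap1 and Gimap5 had WT means of 4530, 3962 and 2541, so their closeness depends on the transcript length used.

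**Figure D4:**
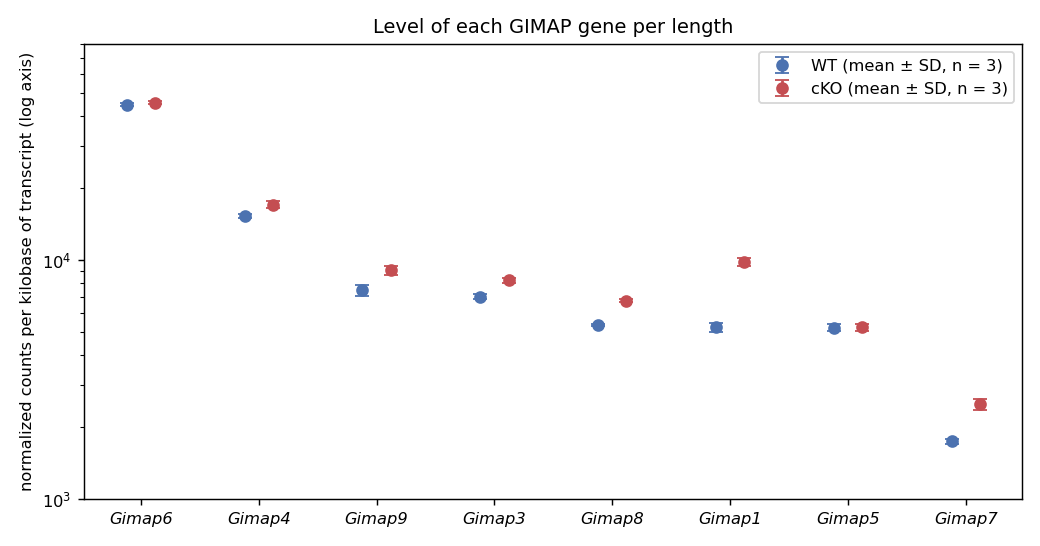
Normalized counts per kilobase of transcript (vertical log axis) of each GIMAP gene in WT and cKO samples (mean and SD, n = 3 each), ordered by the WT mean. Gimap1 lies beside Gimap8 and Gimap5 in WT (5217) and beside Gimap9 in cKO (9788).

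The proteins were compared from the annotated coding sequences. They had 291 to 328 residues except for Gimap8 with 688. The Walker A letters of a GTP-binding site (G, any 4 residues, then GK and S or T) occurred 3 times in Gimap8 and once in every other member. Gimap3 and Gimap5 were the most alike, with 82.7% identity over 301 aligned residues, and Gimap7 and Gimap9 came next with 54.2% over 288. The least alike pair was Gimap4 and Gimap8, at 28.7%. The log2 fold changes of these pairs were 0.23 and 0.0078 for Gimap3 and Gimap5, whose 95% confidence intervals did not overlap, and 0.51 and 0.28 for Gimap7 and Gimap9. Of the overlapping 50-base stretches taken at every base, Gimap3 and Gimap5 shared 190, out of 2096 in the Gimap3 transcript and 1904 in the Gimap5 transcript. These can come from a few longer identical runs, and some reads may be assigned to either gene. For Gimap1, 202 of 1444 such stretches (14.0%) were shared with other genes, among them Gimap1os, Gm28053, Ano10, Hhat and Ppp2r5a. Gimap4, Gimap6, Gimap8 and Gimap9 shared no such stretch with any other annotated gene.

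Because m6A is placed mainly within a GGAC-like context, these letters were counted in the transcripts, without any measurement of m6A. In the longest annotated transcript of each gene, the members held a median of 3.39 per kilobase, from 1.58 in Gimap7 to 8.67 in Gimap1, beside 3.91 over 14073 genes with a transcript sequence, and 3 of the 8 were above that value. The 2 members with the largest rises therefore had the highest and the lowest density. The median GC content of the members was 46.8%, beside 49.5% over those genes. Their median transcript length was 1974.5 bases, beside 3038, and Gimap6 and Gimap8 exceeded the latter.

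Proteins reported to bind or act with GIMAP proteins split in direction. Of 9 listed genes, 3 were higher and 3 lower in cKO, beside 17.8% higher and 18.8% lower over all genes. Their median log2 fold change was −0.035. The survival factor Bcl2 rose from 9450 ± 151 to 13356 ± 113 normalized counts (SD, n = 3 each, log2 fold change 0.50, limma adjusted p = 1.94e-12). The pore-forming death effector Bax rose as well, from 3824 to 4843 (0.34, 4.06e-07). The death-promoting Bcl2l11, which encodes BIM, fell from 19971 ± 402 to 16357 ± 269 (−0.29, 3.20e-08), and the autophagy gene Gabarap fell from 13928 to 11480 (−0.28, 2.72e-07). Gabarapl2 fell from 4801 to 4208 (−0.19, 0.000319), and Gabarapl1 did not pass the test (−0.035, 0.554). For Bcl2 and Bax every cKO sample lay above every WT sample, an arrangement found for 22.7% of all genes. For Bcl2l11 and Gabarap every cKO sample lay below every WT sample. The share of all genes with that arrangement was not computed, and 18.8% of all genes were called lower.

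Genes of resting and naive lymphocytes, in which GIMAP genes are known to be high, were more often higher. Of 14 listed genes, 9 were higher and 2 lower, beside 17.8% higher and 18.8% lower over all genes. Their median log2 fold change was 0.16. S1pr1, the receptor for exit from lymphoid tissue, rose from 2342 ± 106 to 5850 ± 150 (SD, n = 3 each, log2 fold change 1.32, limma adjusted p = 3.24e-18). The antiproliferative gene Btg2 fell from 179944 to 148678 (−0.28, 4.66e-08) and the chemokine receptor gene Ccr7 from 1604 to 1414 (−0.18, 0.0270).

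The other large GTPase families of immune cells, the interferon-inducible IRG, GBP, Mx and Gvin proteins, were more often lower with the authors' scaling. Of 19 listed genes, 4 were higher and 7 lower, beside 17.8% higher and 18.8% lower over all genes, so the count of higher genes was near that share. Their median log2 fold change was −0.066, and with equal totals 7 were higher and 5 lower. Gbp3 fell from 7597 ± 173 to 4228 ± 44.6 (SD, n = 3 each, log2 fold change −0.84, limma adjusted p = 7.91e-16) and Gbp2 from 1959 to 1322 (−0.57, 2.41e-09). Ifi47 rose from 3283 to 3996 (0.28, 2.32e-05) and Gvin1 from 1823 to 2158 (0.24, 0.00116).

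NK cell maturation genes did not move together. The counts given here stand beside 17.8% higher and 18.8% lower over all genes. In both maturation lists the count of lower genes was near that share. Of 10 genes high in mature NK cells, 4 were higher and 2 lower, with a median log2 fold change of 0.015. The trafficking receptor genes S1pr5 (0.49, limma adjusted p = 4.11e-11) and Cx3cr1 (0.54, 1.82e-07) rose, and Ly6c2 (−1.34, 9.18e-19) and Klrg1 (−0.55, 1.39e-10), which encode surface proteins of mature cells, fell. Of 10 genes high in immature NK cells, 4 were higher, among them Ltb (0.64, 2.90e-11), and 2 were lower, Kit (−0.53, 4.89e-08) and Cd7 (−0.29, 1.78e-07), with a median of 0.066. Of the 10 NK cell markers, 2 were higher, Tbx21 (0.23, 5.47e-07) and Il2rb (0.14, 0.000797), and 7 were lower, including Ncr1 (−0.40, 3.56e-11), which carries the Cre and encodes the NK receptor NKp46, and Nkg7 (−0.34, 1.03e-08). The median of the NK cell markers was −0.16.

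Other cells that express GIMAP genes could be present in a sort, and their markers are given beside the family. The counts of each marker list stand beside 17.8% higher and 18.8% lower over all genes. Of the T cell markers, 11 of 12 were listed and Cd8b1 was not listed. None was higher and 4 were lower in cKO, including Cd28 (log2 fold change −0.59, limma adjusted p = 3.46e-12) and Cd3g (−0.75, 4.50e-08), and 7 did not pass the test. With equal totals 2 of these markers were called higher, and with some other settings 1 was. The summed T cell markers ranged from 33419 to 35840 normalized counts in WT and from 28506 to 29353 in cKO, and Trbc1, which NK cells also transcribe, and Cd28 made up most of that sum. Single markers did not all follow it. Cd8a had mean normalized counts of 45.2 ± 6.53 in WT and 71.3 ± 4.44 in cKO (SD, n = 3 each, log2 fold change 0.66, limma adjusted p = 0.0514). Trac had means of 767 ± 56.3 and 863 ± 29.6 (SD, n = 3 each, log2 fold change 0.17, limma adjusted p = 0.0750). In both of these every cKO sample lay above every WT sample, as for 22.7% of all genes, although neither passed the test. Cd4 had means of 95.9 in WT and 86.6 in cKO and Cd5 of 69.5 and 66.0, with overlapping samples, and Cd6 fell from 57.5 to 32.3 (limma adjusted p = 0.0393). Cd3e had means of 151 in WT and 166 in cKO (log2 fold change 0.15) and Cd3d of 710 and 660 (−0.11). Both overlapped between the genotypes and neither passed the test. The mean of Cd28 over the 6 samples was 9889, beside 158 for Cd3e. The part of the T cell markers in the GIMAP difference was not tested.

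All 10 B cell markers were listed, and 7 were higher and none lower, beside 17.8% higher and 18.8% lower over all genes. Their median log2 fold change was 0.61. Cd79a rose from 201 ± 32.4 to 334 ± 56.7 (SD, n = 3 each, limma adjusted p = 0.000293). Their sum ranged from 1437 to 1462 in WT and from 1967 to 2033 in cKO. The part of the B cell markers in the GIMAP difference was not tested.

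Of 10 myeloid markers 5 were listed, with Adgre1 (0.25, limma adjusted p = 0.00475) and Cd14 (0.46, 0.0393) higher and Lyz2 (−0.40, 8.87e-06) lower in cKO. The summed levels were 6186 to 6718 in WT and 6001 to 6733 in cKO. S100a8, S100a9, Mpo, Siglech and Clec9a were not listed. Of 6 erythroid markers 5 were listed, with sums of 811 to 870 in WT and 684 to 832 in cKO, and none passed the test. Of 8 endothelial markers 3 were listed, with sums of 4388 to 4470 in WT and 4505 to 4709 in cKO, and none passed the test. These ranges did not overlap, but the sum was nearly all Pecam1. Its mean over the samples was 4447, beside 43.3 for Vwf and 16.9 for Esam. The defining endothelial genes Cdh5, Kdr, Tek, Emcn and Cldn5 were not listed.

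Among 6937 genes with a mean of at least 1000 normalized counts, those whose values over the 6 samples were most like the GIMAP sum were Nop56 (Pearson r = 0.999), Arpc5l (r = 0.998) and Slc4a1ap (r = 0.998). These values describe 6 samples in 2 genotypes, and the points share the genotype difference and the scaling of each library. The log2 fold changes of the 3 genes were 0.17, 0.22 and 0.19.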

How the data were processed

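mRNA-seq libraries (polyA RNA, NEBNext Ultra kit, paired-end) of FACS-sorted splenic NK cells were compared between 3 WT and 3 cKO samples, grouped by their labels. Per the methods and the submitters' processing notes, the authors used HISAT2 on GRCm38, featureCounts for gene counts and DESeq2 for the comparison. The deposited sample columns hold a signal, gene counts divided by the size factor of each sample. The authors also deposited a mean over samples and their own comparison: log2 fold change with its standard error, a Wald statistic (score), p-value and adjusted p-value. None of these was used.

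The pseudocount was 1 on the log2 scale, and the filter (3 or more samples at 1 or above) removed no gene. Fold changes are on this scale, and folds and percentages are ratios of mean normalized counts. limma 3.58.1 (R 4.3.3) with a variance trend was fitted over all 14490 genes and 6 samples, two-sided, with Benjamini-Hochberg adjustment and 95% confidence intervals. It was tested on simulated data, with independent samples and the same spread beyond sampling noise for every gene. That simulation cannot speak to the spread between these samples. Single values were compared by exact two-sided permutation over 20 assignments. All values were whole multiples of 1 step per sample (tolerance 0.01 reads), from which reads on listed genes were recovered. Samples of one genotype differed beyond sampling noise (chi-square per degree of freedom 5.50 to 8.00), and each was counted as 1 sample.

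Positions, transcripts and translated coding sequences came from GENCODE M21. All 8 members were found there, and 14073 genes had GC content and length. Promoters came from RefSeq GRCm38.p6, in which all 8 were found. Protein identity was computed with Biopython 1.88.

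Named were all members, Mettl3, the 5 neighbours on each side and genes inside the cluster, at most 4 genes per list (the 2 with the lowest p in each direction), and the 3 genes most correlated with the GIMAP sum. Cd3d, Cd3e, Cd4, Cd5, Cd6, Cd8a, Esam, Gabarapl1, Gabarapl2, Pecam1, Trac, Trbc1 and Vwf were added after their values were seen. Some list genes that this rule picks are not reported here. The members and the lists (interaction partners, quiescence, interferon-inducible GTPases, NK maturation, markers of NK, T, B, myeloid, erythroid and endothelial cells) were chosen with earlier results of these data known. Alternatives covered pseudocount, filters, scaling, voom, GC and length, the replicate block and leaving out each sample.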

Additional observations from a re-analysis of the deposited data

How the results depend on the processing

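The count of 6 GIMAP genes higher and 0 lower stayed at 6 and 0 under every alternative run except equal totals, where it was 7 and 0. Gimap6 was then called (log2 fold change 0.075, limma adjusted p = 0.0260). The alternative without the filter repeated the main fit, since the filter removed no gene. The replicate block left the log2 fold changes of the members unchanged and could alter only their p-values. Leaving out 1 sample at a time, Gimap5 ranged from −0.013 to 0.037 on the log2 scale and changed sign in 4 of the 6 fits, at −0.0084, −0.0044, −0.013 and −0.00065 without WT sample 1, WT sample 3, cKO sample 1 and cKO sample 2. Over 15 alternatives each, the log2 fold change ranged from 0.88 to 0.96 for Gimap1, 0.47 to 0.56 for Gimap7, 0.32 to 0.38 for Gimap8, 0.24 to 0.33 for Gimap9, 0.21 to 0.28 for Gimap3 and 0.13 to 0.20 for Gimap4, with a highest adjusted p of 0.00313, for Gimap4. The differences in share turned to −0.711 percentage points for Gimap3 and −0.0825 for Gimap9 when Gimap6 was left out of the sum, because a member whose share fell was removed from it. Calls over all genes numbered 5307, and between 4417 and 4922 when 1 sample was left out. The deviations of samples with the same number had correlations of −0.040, 0.056 and 0.038, and those with different numbers ranged from −0.067 to 0.035. With 3 samples per genotype these values cannot show whether the numbers pair the samples. The replicate block gave 5543 calls and the same 6 GIMAP genes, with 6 higher and 0 lower also when joined to GC and length correction. Counts over the gene lists, recomputed under the same settings as a choice made after seeing the data, differed by more than 1.5 times for 7 directions of 7 lists in at least 1 setting (B cell markers higher in cKO fell from 7 to 4 with GC and length splines and the block). The planned edgeR and DESeq2 alternatives were not run. Precision is limited by the 3 samples per genotype, and the intervals of Gimap5 and Gimap6 include 0.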
